A study of Mus musculus with 6 samples.

Results

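The genes described here are the neighbours of Ntep on the distal end of mouse chromosome 16. Their probes were chosen by a rule on position, which was set with earlier results of these data known. Leaving out Ntep and the lincRNA probes (27 in the region), it takes every non-control probe annotated on chromosome 16 from base 92300000 (mm9) onward. These are 101 probes of 69 genes, among 39429 probes of 30051 genes on the arrays counted the same way, and the rest of chromosome 16 holds 874 genes. The cells were 3T3, a mouse fibroblast line of embryonic origin, and had been transfected for 48 h with 50 nM of either GapmeR Ntep or GapmeR control. A GapmeR is an antisense oligonucleotide that recruits RNase H to cut the RNA it pairs with, and GapmeR control is a negative control sequence given to the same cells. In 3 independent experiments 1 culture was treated with each GapmeR, and the 6 RNAs were read on 6 one-colour Agilent arrays on 1 slide. The question was whether genes close to Ntep on the chromosome differed between the labels, by distance.

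Ntep (A630089N07Rik) is a mainly nuclear long noncoding RNA. A long noncoding RNA can act in cis, on genes of the chromosome it is made from, often through the act of its transcription or through proteins it gathers at its locus, or in trans, on genes elsewhere. Silencing its transcript by a GapmeR and reading genes by distance is a common way to look for the first. This end of mouse chromosome 16 is also known for the gene order it shares with the human chromosome behind Down syndrome, and it carries Mx1 and Mx2, genes of dynamin-like GTPases that interferon induces.

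Ntep was read by 1 probe, at chr16:98283712-98283771 (mm9, minus strand), and LOC100045081 by a probe 2.62 kb farther distal on that strand, at chr16:98286394-98286453. C030010L15Rik lies 67.8 kb from Ntep, also on the minus strand, at chr16:98215819-98215878. The 60 bases that read these 3 transcripts are shown because the signals nearest to Ntep rest on them, in lower case throughout since no base is singled out.
Ntep probe: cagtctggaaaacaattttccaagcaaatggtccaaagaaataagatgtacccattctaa
LOC100045081 probe: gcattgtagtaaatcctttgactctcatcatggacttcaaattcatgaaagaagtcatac
C030010L15Rik probe: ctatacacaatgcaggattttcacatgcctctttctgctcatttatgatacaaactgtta
The probe of Ntep shares no run of 15 bases, on either strand, with any other probe of the arrays, and neither do those of B230307C23Rik, C030010L15Rik, Zbtb21 and Mx1. The probe of LOC100045081 shares such a run with 2 probes of other genes, each of the 2 Mx2 probes and that of Fam3b with 1, and each Sh3bgr probe with 4, its partner among them. The part of other transcripts in these signals was not tested. RefSeq (GRCm38.p6) places no gene beyond Ntep on chromosome 16 and has no entry for LOC100045081, which the array names as a predicted KRAB zinc finger gene. Which transcript its probe reads was not tested.

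The promoters of Ntep and of its neighbour B230307C23Rik resemble each other in sequence, and are shown because B230307C23Rik had one of the larger differences near Ntep. The 250 bases before each start are shown from RefSeq (GRCm38.p6), with bases that are identical in the other promoter at aligned positions in capitals. The window of Ntep is chr16:98082440-98082689 on the minus strand, and that of B230307C23Rik is chr16:97997086-97997335 on the plus strand.
Ntep promoter: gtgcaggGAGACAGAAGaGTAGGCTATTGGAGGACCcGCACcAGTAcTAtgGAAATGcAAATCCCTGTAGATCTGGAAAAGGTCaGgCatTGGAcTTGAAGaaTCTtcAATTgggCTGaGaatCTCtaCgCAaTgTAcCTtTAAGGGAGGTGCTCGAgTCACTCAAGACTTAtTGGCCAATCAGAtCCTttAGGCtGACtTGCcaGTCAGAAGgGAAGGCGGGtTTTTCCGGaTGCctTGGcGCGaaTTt
B230307C23Rik promoter: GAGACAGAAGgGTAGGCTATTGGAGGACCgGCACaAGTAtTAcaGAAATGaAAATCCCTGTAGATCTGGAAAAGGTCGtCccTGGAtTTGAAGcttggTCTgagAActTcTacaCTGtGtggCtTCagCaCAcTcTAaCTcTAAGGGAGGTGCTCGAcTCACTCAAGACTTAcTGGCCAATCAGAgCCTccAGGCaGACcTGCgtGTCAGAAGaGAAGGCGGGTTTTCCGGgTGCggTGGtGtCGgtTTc
In a global alignment 195 of 259 positions were identical (75.3%), with a longest identical run of 26 bases. The windows shared 33 words of 12 bases. Of 27024 other genes with a RefSeq promoter, 6 shared as many words or more with Ntep, B230307C23Rik among them, and 11 shared at least 10. The match is a description of these windows, and pairing of the GapmeR with B230307C23Rik was not tested.

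Between 43.7% and 53.3% of the 55681 probes of an array were well above background, no probe was saturated, and arrays of a label correlated at 0.978 to 0.989. Signals were quantile normalized and set to at least 20, and a probe was tested with limma where its mean reached 50 in the brighter label. Of 10 fibroblast markers 9 were tested, and their summed signal was 463000 to 614000 on the arrays labelled GapmeR Ntep and 700000 to 774000 on those labelled GapmeR control. Of 8 macrophage markers 6 were tested, with sums of 42900 to 75300 against 21000 to 27700, while the defining markers Ptprc and Adgre1 stayed under the signal limit. Of 4 endothelial markers 2 were tested, with sums of 687 to 764 against 519 to 595, and Cdh5 and Tek stayed under the limit. All 4 epithelial markers were tested, with sums of 2730 to 5350 against 1770 to 3750. A sum follows its brightest genes, and members differed in direction. A lower mean was seen for 8 of the 9 fibroblast, 2 of the 6 macrophage, 0 of the 2 endothelial and 1 of the 4 epithelial markers tested. The part of these shifts in the results below was not tested. In a bulk culture, fewer cells with a transcript and less of it per cell cannot be told apart.

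The Ntep probe itself did not separate the labels. In experiments 1, 2 and 3 it read 472, 91.5 and 226 under GapmeR Ntep, against 271, 272 and 361 under GapmeR control (normalized signal). Experiment 1 was higher under GapmeR Ntep and the other 2 were lower, and the labels overlapped. The log2 difference was -0.48 (SE 0.58, limma adjusted p = 0.632), and the two-sided exact permutation p was 0.7 (the smallest that 3 arrays per label allow is 0.1). Without GapmeR Ntep replicate 2 the difference was 0.13. By another assay, quantitative PCR, the study reported that GapmeR Ntep silenced Ntep in this cell line. Since its labels overlapped, the array probe cannot decide whether Ntep was silenced in the cultures read here. Because experiment 1 went against its label at this probe, every direction below is that of the label. In that experiment LOC100045081 differed by -3.81, B230307C23Rik by -3.49 and Mx1 by -5.55 in log2, the same sign as in the other experiments.

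The 4 tested genes nearest to Ntep were all lower on the arrays labelled GapmeR Ntep, with their brightest probe in each of the 3 experiments. They are LOC100045081 at 2.62 kb, B230307C23Rik at 45.8 kb, C030010L15Rik at 67.8 kb and Zbtb21 at 115 kb, and all 5 of their tested probes had a lower mean. LOC100045081 is counted here as a gene of its own, although whether its probe lies within Ntep was not tested. The next genes outward, C2cd2, Prdm15 and Ripk4, from 203 to 320 kb, passed no test. The limit between these groups of genes was seen in the values and was not set beforehand. Among all 18641 genes tested on the arrays, 29.2% were lower in all 3 experiments.

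LOC100045081 read 20, 31 and 30.6 on the arrays labelled GapmeR Ntep and 280, 226 and 229 on the others. It was well above background on all 3 arrays labelled GapmeR control and on none labelled GapmeR Ntep, so the labels were far apart but the low level is uncertain. With the low side set to the lowest signal well above background (49.6), the signal was 4.92-fold higher under GapmeR control. This is no strict bound, since a B230307C23Rik probe read 72.4 on 1 array without being well above background. The fitted log2 difference was -3.19 (SE 0.24, limma adjusted p = 0.0157). With normexp background correction, which here adds 50 to each signal, the difference was -1.29 (limma adjusted p = 0.0128). The added 50 draws differences of dim probes toward 0, while the bright probe of Mx1 went from -3.83 to -3.79. Among the probes kept here it is the closest to Ntep, on the same strand, and it separated the labels where the Ntep probe did not. Whether it reads Ntep or a neighbour was not tested.

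B230307C23Rik, a neighbour that RefSeq lists as protein coding, lies on the other strand. Its brightest probe read 352, 826 and 509 under GapmeR Ntep and 3960, 2537 and 2937 under GapmeR control. No array of one label reached the other, and the mean fell from 3145 ± 734 to 562 ± 242 (SD, n = 3 each; log2 -2.55, SE 0.36, limma adjusted p = 0.0281). A second probe was dimmer and its labels overlapped, at 73.6, 132 and 179 against 210, 173 and 167. Its log2 difference was -0.60 (limma adjusted p = 0.336), with experiment 3 at 0.10. The remaining probe was not well above background on any array, so the calls of this gene rest on 1 of 3 probes.

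C030010L15Rik, a long noncoding RNA that RefSeq places across B230307C23Rik on the opposite strand, read 85.2, 156 and 128 against 243, 262 and 223. All 3 arrays labelled GapmeR Ntep were below all 3 controls, with a log2 difference of -1.02 (SE 0.26, limma adjusted p = 0.0765), past the fold and unadjusted limits only. With normexp background correction and its added 50 it was -0.56. Zbtb21, a zinc finger transcription factor gene, read 456, 424 and 427 against 906, 609 and 628. Its labels did not overlap either, but the difference of -0.69 (SE 0.21, limma adjusted p = 0.112) passed neither rule. Gm3374, which lies between them, stayed between 20 and 39.5 on all arrays and was not tested.

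Among genes elsewhere with promoters like that of Ntep, none of the 3 with tested probes had a lower mean. Besides B230307C23Rik, 10 genes shared at least 10 words of 12 bases with the promoter of Ntep, none on chromosome 16, and 3 of them had tested probes. Gm9631 on chromosome 11, which shared 127 words, read 1614, 805 and 817 under GapmeR Ntep against 765, 626 and 647 (log2 0.59, limma adjusted p = 0.299). Zfp932 and 4930522L14Rik, both on chromosome 5, differed by 0.59 and 0.48 and by 0.82 and 0.11 with their 2 probes each. None of these 5 probes was lower and none passed either rule. Among all genes tested 47.9% had a lower mean, so few genes not lower say little. The rest of the 10 had no tested probe, and a link between promoter likeness and these differences was not tested. This comparison was chosen after the values of B230307C23Rik had been seen.

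**Figure D1:**
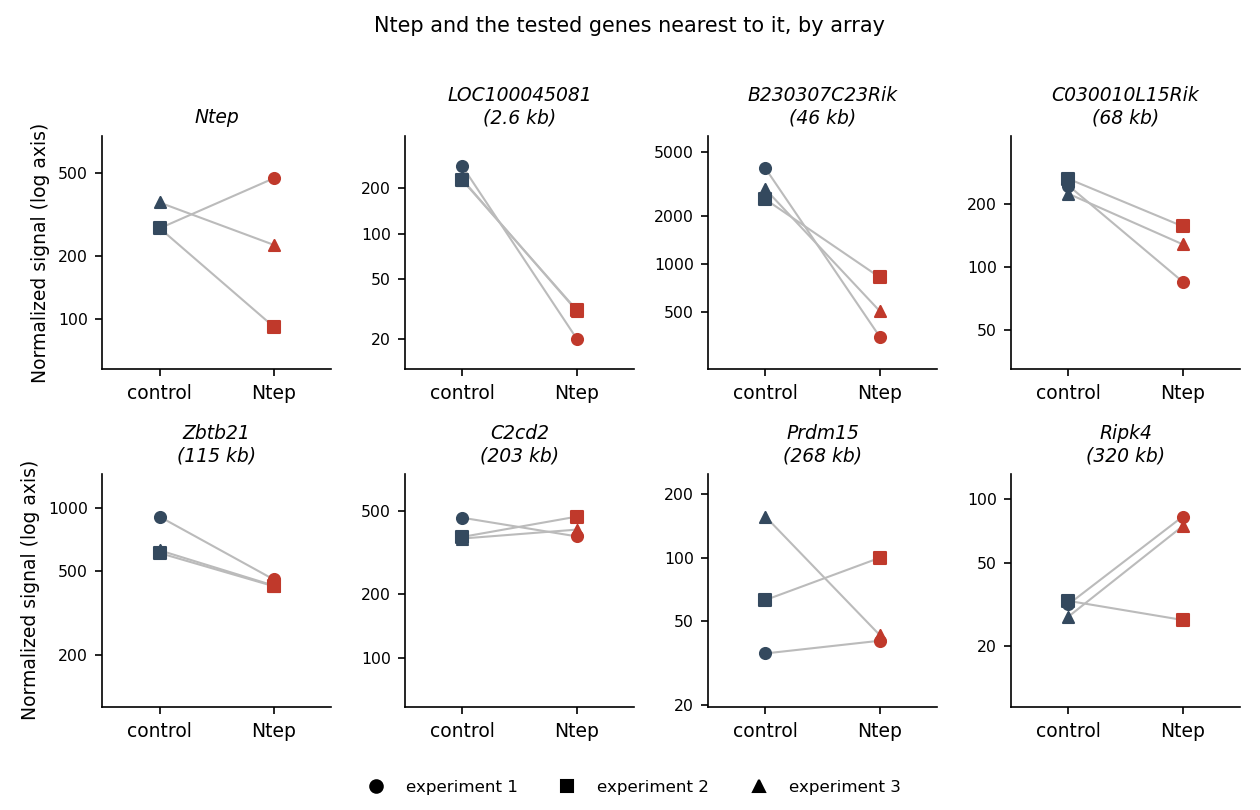
Normalized signal (log axis) of Ntep and of the 7 tested genes nearest to it on the 6 arrays, as points joined within each experiment, with the distance of the plotted (brightest tested) probe. LOC100045081, B230307C23Rik, C030010L15Rik and Zbtb21 were lower under GapmeR Ntep in all 3 experiments, while the lines of Ntep, C2cd2, Prdm15 and Ripk4 cross or point both ways.

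C2cd2, whose product carries a C2 domain, read 377, 468 and 406 against 462, 375 and 369, a log2 difference of 0.06 (SE 0.18, limma adjusted p = 0.874). Prdm15, a zinc finger transcription factor gene of the PRDM family, differed by 0.39 and -0.33 with its 2 dim probes. Ripk4, a kinase gene of the RIP family, read 82.6, 26.7 and 74.4 against 31.7, 32.9 and 27.7, but was well above background on only 1 array (log2 0.83, limma adjusted p = 0.306). Tmprss2, a transmembrane serine protease gene at 497 kb, read at most 39.1 on any array. From C2cd2 to Tmprss2 no probe passed either rule. Without GapmeR Ntep replicate 2, Ripk4 passed after adjustment (log2 1.37, limma adjusted p = 0.0408).

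A second run of lower signals followed at 0.5 to 0.6 Mb, where Mx2, Fam3b and Mx1 lie. Mx1 read 1082, 8673 and 8005 under GapmeR Ntep and 50553, 77433 and 55196 under GapmeR control. Every control array was above every array labelled GapmeR Ntep, with a log2 difference of -3.83 (SE 0.82, limma adjusted p = 0.0542). This passed the fold and unadjusted limits, and with the experiments as blocks the adjusted limit too (limma adjusted p = 0.0397). The size was uneven among experiments, at -5.55, -3.16 and -2.79.

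Mx2 read 4407, 22241 and 15516 against 47372, 62821 and 49477, again without overlap. Its log2 difference of -2.20 (SE 0.60, limma adjusted p = 0.0891) passed neither rule, and its dimmer probe differed by -1.99 (limma adjusted p = 0.141). With the experiments as blocks, the bright probe passed the fold and unadjusted limits. RefSeq lists both genes as transcribed pseudogenes in the reference strain, and the arrays read their RNA.

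Mx1 and Mx2 moved in the direction of interferon-stimulated genes on other chromosomes. Of 20 such genes, among them Isg15 and Ifit1, all were tested and had a lower mean. Their log2 differences ran from -2.94 to -0.36 around a median of -2.05. Of these, 15 passed the fold and unadjusted limits and 9 the adjusted limit, none of them upward. Over all genes tested, 47.9% had a lower mean, and 6.23% and 4.04% passed these limits downward. The median over all genes tested was 0.03. The list was chosen with earlier results of these data known and is given as a description.

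Fam3b lies between Mx2 and Mx1 and encodes a secreted cytokine-like protein. It read 48.7, 56.2 and 83.9 against 159, 167 and 135, and was well above background on 1 of 3 arrays labelled GapmeR Ntep and on all 3 controls. Its labels did not overlap, and the log2 difference of -1.32 (SE 0.25) passed after adjustment (limma adjusted p = 0.043). With normexp background correction, whose added 50 draws dim probes toward 0, the difference was -0.52 (limma adjusted p = 0.0581). The limma adjusted p was 0.0773 to 0.174 without any 1 array, so this call depends on all 6 arrays. Bace2, a protease gene next to Mx1, and Gm3337, Gm9242 and G370062D05Rik read at most 42.0 on any array.

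**Figure D2:**
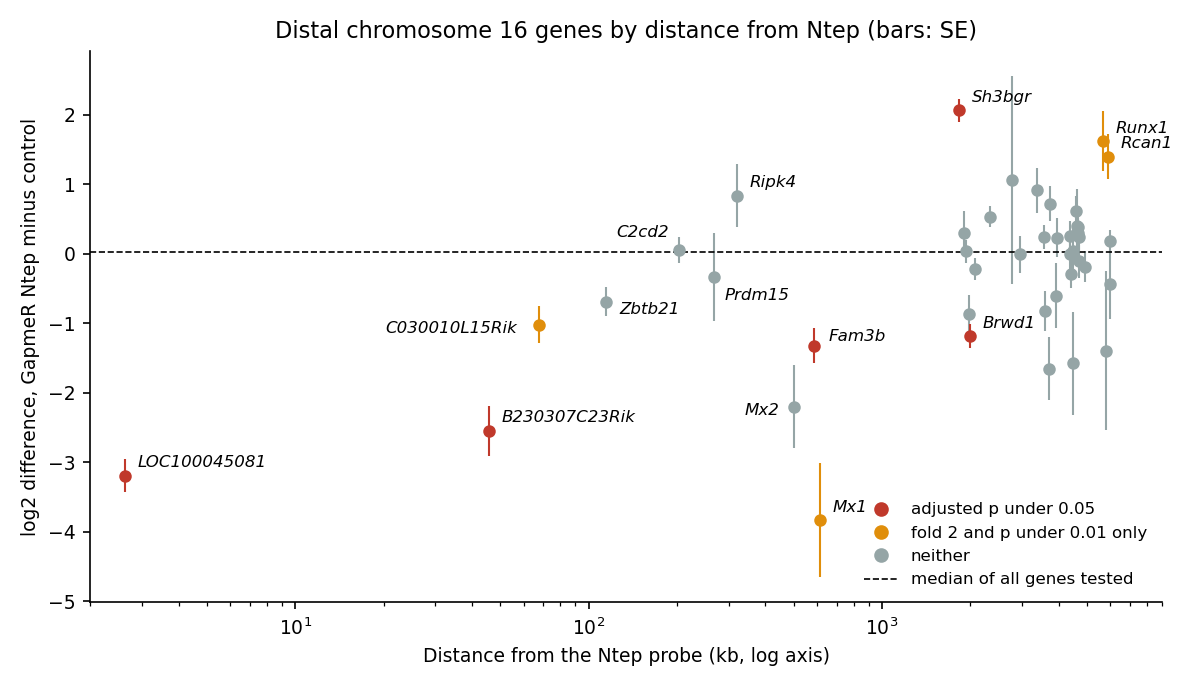
Log2 difference (GapmeR Ntep minus GapmeR control, limma, bars are SE) of the 43 tested genes against the distance of the brightest tested probe from the Ntep probe in kb (log axis). Red points passed the adjusted p, orange points only the fold of 2 with p under 0.01, and grey points neither. The dashed line is the median of all genes tested (0.03).

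By distance, the median differences of the ranges were below 0 within 1 Mb of Ntep and above 0 beyond it. Of the 69 genes, 43 were tested. The other 26 have 33 probes, of which 30 were well above background on no array, and no value of theirs exceeded 61.2. Under 0.5 Mb, 7 of 9 genes were tested, and their log2 differences ran from -3.19 to 0.83 around a median of -0.69. From 0.5 to 1 Mb, 3 of 7 were tested, with a median of -2.20. These are Mx2, Fam3b and Mx1.

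The medians beyond 1 Mb were 0.03 for 5 genes from 1 to 2 Mb, 0.23 for 11 genes from 2 to 4 Mb and 0.18 for 17 genes farther out. In experiments 1, 2 and 3, the medians were -0.99, -0.52 and -0.80 under 0.5 Mb, and -3.43, -1.57 and -1.67 from 0.5 to 1 Mb. They were -0.49, -0.07 and 0.17 from 1 to 2 Mb, 0.28, -0.11 and 0.04 from 2 to 4 Mb, and 0.26, 0.17 and 0.09 over 4 Mb. Both ranges within 1 Mb thus had lower medians than every range farther out in all 3 experiments, while the sign beyond 1 Mb was not the same in each.

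Over all 43 genes the median was -0.001, against 0.03 for all genes tested and -0.004 for the rest of chromosome 16. The Spearman correlation of the difference with distance was 0.334 across the 43 genes (0.431, 0.312 and 0.319 in experiments 1, 2 and 3). That of the size of the difference was -0.297. Genes of the same arrays are not independent, so no p is given. Without Mx1 and Mx2 the first was 0.265.

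**Figure D3:**
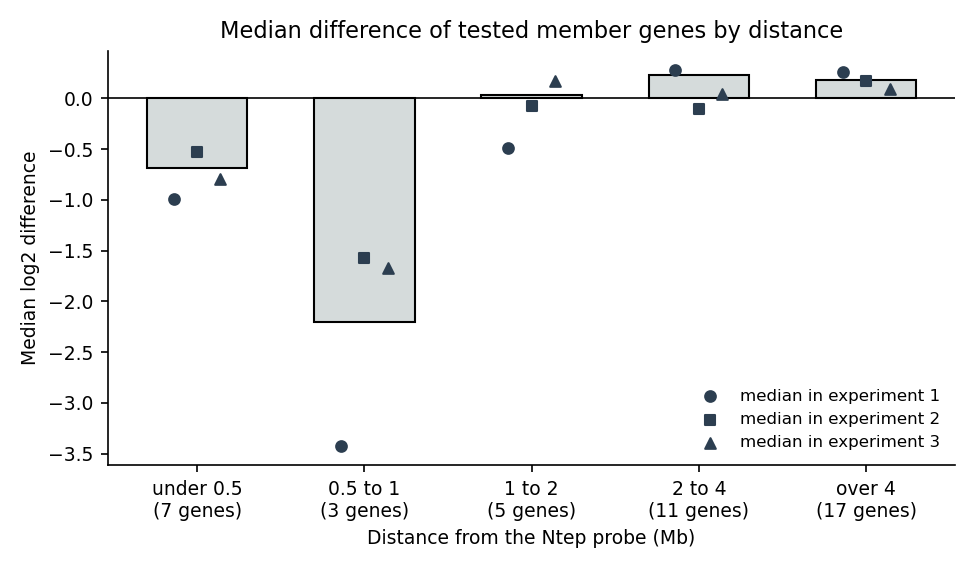
Median log2 difference of the tested genes in 5 ranges of distance from the Ntep probe (Mb). Bars are medians over genes of the mean over experiments, and points are the medians within each experiment. Both ranges under 1 Mb were below 0 in all 3 experiments.

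In total 9 of the 43 genes (20.9%) passed a fold of at least 2 with an unadjusted p under 0.01, where 9.97% of all 18641 genes tested did. Of these, 6 were lower and 3 higher (Runx1 by 1 of its 2 tested probes), against 6.23% lower and 3.78% higher over all genes. After Benjamini-Hochberg adjustment over all probes tested, 5 genes (11.6%) passed in limma, 4 lower and 1 higher, against 6.72% of all genes (4.04% lower and 2.68% higher). LOC100045081 was counted as a gene under both rules. In the rest of chromosome 16 the shares were 9.19% and 6.57%. For 20 of the 43 genes (46.5%) no array of one label reached the other, where 33.9% of all genes had no overlap. The median size of the difference was 0.60 in log2, against 0.41 for all genes and 0.35 for the rest of the chromosome.

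These counts depend on single arrays. Without GapmeR control replicate 2, control replicate 3 or Ntep replicate 3, no gene of the region passed the adjusted limit in limma, while 13, 14 and 15 passed an unadjusted p under 0.05. The adjusted share over all genes was then 0.0%, 0.0268% and 0.0%, so the calls were lost across the arrays. Without GapmeR control replicate 1 it was 2 genes, and 0.635% of all genes. With the experiments as blocks, 12 genes passed after adjustment, 8 lower and 4 higher. These were all 5 from before, with Mx1, Runx1, Rcan1, Pigp, Dop1b, Ttc3 and the transcript XM_001473076 added. Blocking raised the share over all genes as well, from 6.72% to 17.4%.

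Sh3bgr, at 1.83 Mb, had the largest log2 difference upward of the 43 tested genes of the region. It encodes a small protein with an SH3-binding, glutamic acid-rich stretch that is known from heart and skeletal muscle. One probe read 3203, 3144 and 3093 against 716, 691 and 863, a rise from 757 ± 93.3 to 3147 ± 55.3 (SD, n = 3 each; log2 2.06, SE 0.17, limma adjusted p = 0.0157). The other probe, which overlaps it in sequence, rose by 1.92 (limma adjusted p = 0.0204) and is no separate measurement. The labels were far apart at both. Its neighbours Get1 (log2 0.30), a receptor gene for tail-anchored proteins, and Hmgn1 (0.03), a nucleosome-binding protein gene, passed no test.

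Brwd1, a bromodomain gene at 1995 kb, fell with 1 of its 5 tested probes. That probe read 1683, 2161 and 2039 against 4648, 4250 and 4409, without overlap (log2 -1.18, SE 0.17, limma adjusted p = 0.0288). The other 4 differed by -0.69, -0.37, -0.28 and 0.35, and none passed a rule. The other chromatin genes of the region were nearer to 0. Chaf1b, of the chromatin assembly factor, differed by 0.25, Morc3 by -0.29 and Setd4, a methyltransferase gene, by -0.11.

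At the far end, Rcan1 and 1 of the 2 tested probes of Runx1 passed the fold and unadjusted limits upward. Rcan1, a calcineurin inhibitor gene at 5.89 Mb, read 9512, 5522 and 6367 against 3860, 2178 and 2185 (log2 1.40, SE 0.33, limma adjusted p = 0.0648). Its experiments differed by 1.30, 1.34 and 1.54, and with them as blocks the adjusted p was 0.031. All arrays labelled GapmeR Ntep were above all controls.

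Runx1, a core transcription factor of blood formation that fibroblasts also express, had a bright probe at 6505, 2753 and 3666 against 2095, 952 and 1149. Its log2 difference was 1.61 (SE 0.43, limma adjusted p = 0.0848), and 1.64, 1.53 and 1.67 within the experiments (limma adjusted p = 0.031 with blocks). A dimmer probe of Runx1 went the other way, at 154, 119 and 109 against 370, 187 and 190 (-0.91, limma adjusted p = 0.155). Both probes separated the labels, in opposite directions, so no direction is given for the gene as a whole.

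**Figure D4:**
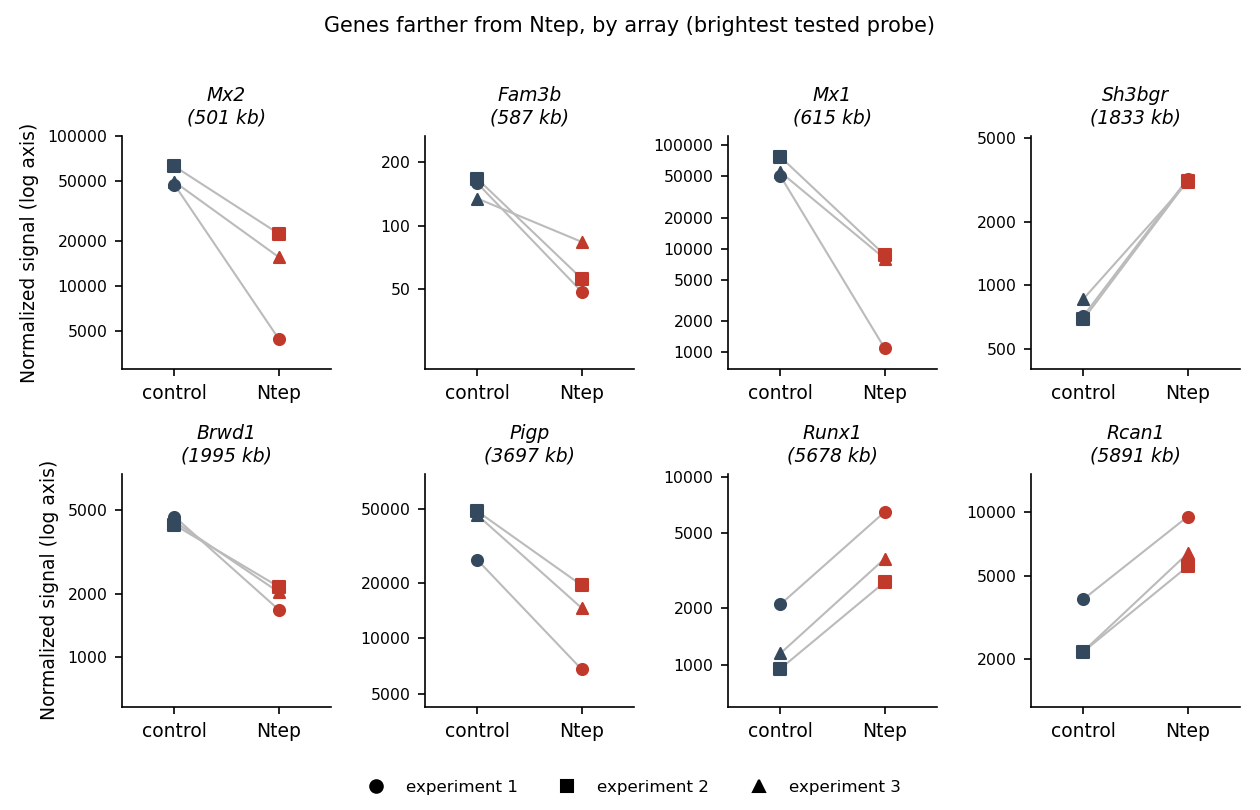
Normalized signal (log axis) of 8 genes farther from Ntep on the 6 arrays, as points joined within each experiment, for the brightest tested probe. Mx2, Fam3b, Mx1, Brwd1 and Pigp were lower and Sh3bgr, Runx1 and Rcan1 higher under GapmeR Ntep in all 3 experiments.

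Pigp, a subunit gene of the enzyme that starts GPI anchor synthesis, showed the same kind of split. Its bright probe read 6806, 19390 and 14604 against 26588, 48709 and 46472 (log2 -1.65, SE 0.45, limma adjusted p = 0.0898, and 0.0312 with blocks). Its other probe read 870, 544 and 413 against 390, 373 and 356 (0.64, limma adjusted p = 0.243). Of the 15 genes with more than 1 tested probe, 4 had probes of both signs, namely Prdm15, Brwd1, Pigp and Runx1.

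**Figure D5:**
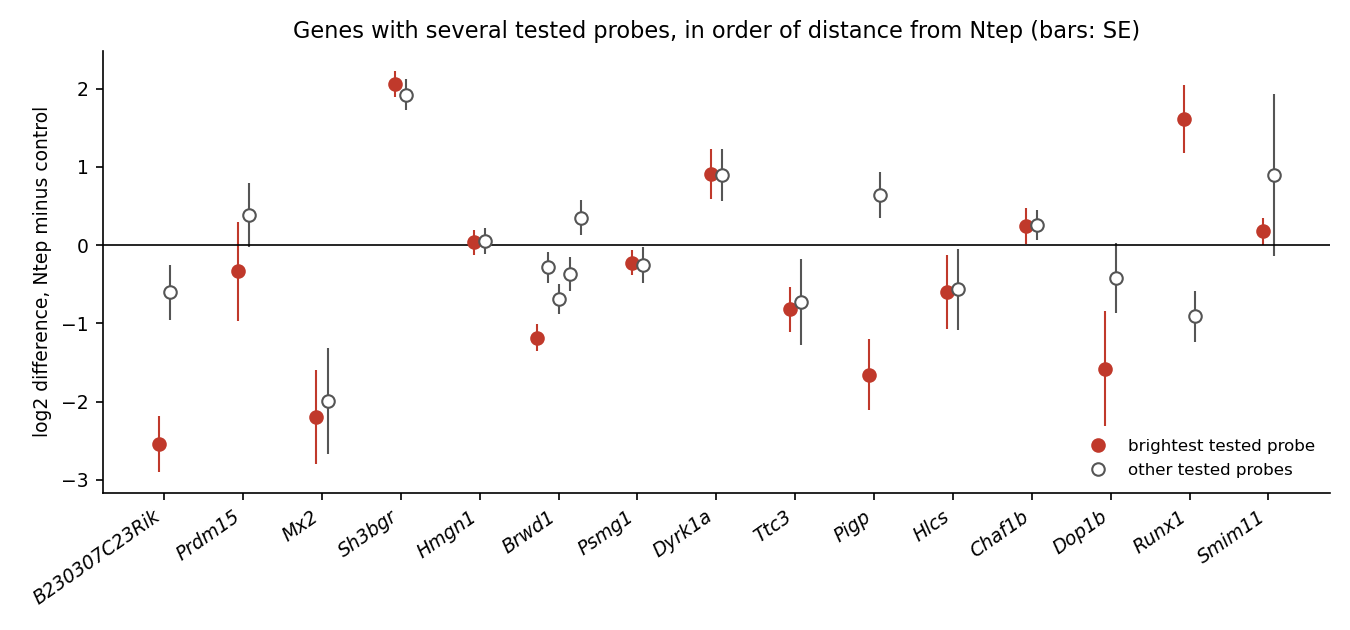
Log2 difference (GapmeR Ntep minus GapmeR control, bars are SE) of every tested probe of the 15 genes with more than 1, in order of distance from Ntep, with the brightest probe filled. The probes of Sh3bgr, Mx2 and Dyrk1a lie together, while those of Prdm15, Brwd1, Pigp and Runx1 fall on both sides of 0.

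The other genes of the region are given by role. Of 5 tested transcription factor genes, Runx1 alone passed a rule, and Ets2 read 5965, 6677 and 6831 against 4610, 4266 and 4575 (log2 0.53, limma adjusted p = 0.103). Sim2 differed by 0.23. Among 3 signalling genes, Dyrk1a, a kinase gene, differed by 0.91 and 0.90 with its 2 tested probes (limma adjusted p = 0.152 and 0.162). None of 4 tested enzyme genes passed without blocks. Besides Pigp, the lowest of them, Cbr1 and Cbr3, carbonyl reductases, differed by 0.30 and 0.62, and Hlcs, the holocarboxylase synthetase gene, by -0.60.

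None of 5 protein targeting and assembly genes passed without blocks. Psmg1, a proteasome assembly chaperone gene, differed by -0.22 and Vps26c, of the endosomal retriever complex, by 0.24. Ttc3, a ubiquitin ligase gene, read 34452, 65589 and 52726 against 71507, 96852 and 94262 (log2 -0.82, limma adjusted p = 0.151). Its labels did not overlap, and its dimmer probe passed with blocks (limma adjusted p = 0.0468). Dop1b read 378, 1892 and 986 against 1214, 4649 and 3322, with differences of -1.68, -1.30 and -1.75 within the experiments but overlap between labels (log2 -1.58, limma adjusted p = 0.249, and 0.031 with blocks).

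Many membrane protein genes of the region gave no usable signal in these cells. Of 10 channel and membrane genes, Kcnj6, Kcne1, Clic6, Dscam, Igsf5 and Pcp4 stayed under the signal limit, as did the transcription factor genes Erg and Ripply3 and the enzyme gene B3galt5. Kcnj15 was tested through 1 array at 816, with the other 5 between 20 and 59.1. Cldn14 differed by -0.001. For these genes a difference was not detectable at this signal.

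At the proximal limit of the region, 1700048M11Rik, Smim11 and Rcan1 lie just inside and Kcne2, Mrps6 and Slc5a3 just outside. The brightest probe of Smim11 differed by 0.18 and the probe of 1700048M11Rik by -0.44. Kcne2 was at 20 on every array, Mrps6 differed by 0.24 and Slc5a3 by -0.55. None of these but Rcan1 passed a rule.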

How the data were processed

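RNA of 6 cultures (3 per GapmeR) was read on one-colour arrays of 55681 probes (59305 spots). The authors scanned them with Agilent Feature Extraction 10.7.3.1 and deposited processed signal intensities, background subtracted on a linear scale and not normalized between arrays, and a table of normalized intensities. Here spots of a probe were averaged, arrays quantile normalized, values under 20 set to 20 and log2 values compared by limma 3.58.1 (R 4.3.3, with files read by the package data.table in version 1.17.8), two-sided, without blocks. A probe was tested where the brighter label averaged 50 or more. A gene passed if any probe reached a fold of 2 with an unadjusted p below 0.01, or passed 0.05 after Benjamini-Hochberg adjustment across all tested probes, and otherwise its brightest tested probe stands for it.

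Of the 101 probes, 62 were named through RefSeq accessions, 14 through symbols, 1 through an older symbol, 8 through descriptions and 16 as in the files. Genes are named by rule: Ntep, the 12 nearest genes, every gene past a rule, fixed lists by role and the genes at the proximal limit. Members, lists and thresholds were chosen with earlier results of these data known. The labels number no replicates, and the study's supplement sets each GapmeR Ntep array against 1 control array. Deviations from the label means correlated at 0.466, 0.300 and 0.254 within these pairs (-0.327 to 0.126 across them), so the numbers pair the arrays, and a fit with experiments as blocks was run beside the unblocked one. Where the low label was not well above background on any array, a fold was also computed from the lowest signal well above background. It is no strict bound. The fit was tested on simulated data. The authors' own comparison columns in the supplement (ratios, fold changes, p-values) were not used. Depth does not apply to arrays, and their number limits the precision. The GapmeR sequence was not matched to transcripts.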

Additional observations from a re-analysis of the deposited data

How the results depend on the processing

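Genes past a fold of 2 and p under 0.01 (9) numbered 5 of 69 without a signal filter, where 4.57% of all genes passed. They numbered 5 with the methods' t-test (5.94% of all genes) and 5 to 12 when 1 array was left out (6.31% to 12.5%). Those past the adjusted limit (5) numbered 3 without a signal filter (1.54% of all genes) and 12 with the replicate block (17.4%). There were 2 with the methods' t-test (1.29% of all genes) and 18 with array weights (39.0%). It was 3 with RefSeq symbols that are not clone-type names (such as those ending in Rik or starting with Gm or LOC). That setting leaves out LOC100045081 and B230307C23Rik, and no share over all genes is given for it. With 1 array left out it was 0 to 5 (0.0% to 5.87% of all genes). The median difference was 0.197 with 75th percentile scaling, which moved the median of all genes to 0.187, and ranged from -0.119 to 0.0483 when 1 array was left out. The Spearman correlation with distance was 0.473 over probes well above background on 3 arrays, 0.265 without Mx1 and Mx2, and 0.239 to 0.399 when 1 array was left out. When 1 array was left out, Ntep ranged from -1.09 to 0.129, C2cd2 from -0.0307 to 0.159 and Prdm15 from -0.839 to 0.24. The signs turned without GapmeR Ntep replicate 2 for Ntep (0.129) and C2cd2 (-0.0307), and without GapmeR control replicate 3 for C2cd2 (-0.00364) and Prdm15 (0.24). The brightest tested probes of the 9 genes past the fold and unadjusted limits kept their direction in every fit. Runx1 and Brwd1 each also had a tested probe of the opposite sign. The cause of these shifts was not tested. Dim probes and 3 arrays per label limit what could be detected.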
